A study of Saccharomyces cerevisiae with 44 samples.

Results

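Steady-state RNA was compared between wild-type quiescent cells of day 7 and wild-type cells arrested in G1 at day 1. The comparison holds 4 of the 44 samples of the series, 2 quiescent and 2 G1 libraries, chosen by their labels: wild-type, the Ovation library kit and total (not newly made) RNA. All were Saccharomyces cerevisiae of the laboratory strain W303 and labelled wild type. Quiescent cells were the fraction purified on a gradient from cultures grown for 7 days to saturation in rich medium (YEP) with 2% glucose. G1 cells came from early log phase cultures and were held with 5 µg/ml of the mating pheromone alpha factor. Pheromone was added again after 90 minutes if the arrest was not complete, so the reference state is a pheromone-arrested one and not an unperturbed G1 phase. Replicate 1 of each state carries strain number 5781 and replicate 2 strain number 5782. The labels give no further difference between the replicates of a state. The p-values rest on a spread between replicates that was estimated over 8 wild-type Ovation libraries, these 4 and those of nascent (newly made) RNA. The same 2 states were also sequenced with a second kit, Universal Plus, as 2 quiescent day 8 and 2 G1 libraries, which are given alongside.

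Quiescence is the reversible non-dividing state that yeast enter when glucose and then ethanol are used up. The cells that settle in the dense fraction of a gradient are daughters with thick walls and stored carbohydrate and lipid, which keep their ability to divide for weeks. Growth-related transcription is known to be low in this state, and many mRNAs are held in storage with RNA-binding proteins. The alpha factor arrest also stops division in G1, through the mating MAP kinase cascade, but the arrested cells keep growing and make a mating projection.

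The quiescent libraries held 3375254 and 2508680 reads on mRNAs, against 5739279 and 5992272 in the G1 libraries, all counted by strand. The replicates were less alike in quiescence than in G1: the standard deviation of the log2 difference between replicates was 0.711 in quiescence and 0.417 in G1. The 10 markers of alpha-factor arrested a cells summed to 494 and 255 CPM (read counts scaled by TMM to library size) in the quiescent replicates, against 28414 and 32667 CPM in the G1 replicates. The 8 markers of quiescent cells summed to 24908 and 35665 CPM in quiescence, against 252 and 270.4 CPM in G1. The 8 sporulation markers summed to 4146 and 2850 CPM in quiescence and 21.7 and 22.0 CPM in G1, nearly all from 1 gene, SPS100, described below. Markers of mitotic and alpha cells gave smaller sums. The 8 mitotic markers summed to 208 and 164 CPM in quiescence and 246 and 254 CPM in G1, and the 4 alpha-cell genes to 139 and 70.1 CPM against 32.4 and 45.1 CPM. Fewer cells of a type and less RNA per cell cannot be told apart in such bulk libraries.

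Of 6001 mRNAs tested, 2194 were higher in quiescence (36.6%) and 2268 lower (37.8%) at an adjusted p under 0.05 in edgeR's quasi-likelihood test, and these shares are the background for every count below. "Rose" and "fell" are used only of genes that passed this test, and each log2 fold change is quiescent over G1, with its standard error after the ± sign. A stricter test against a 2-fold change called 1350 mRNAs higher and 1534 lower. A fit of only the 4 steady-state libraries called 2064 higher and 2102 lower. Scaling by the reads of Kluyveromyces lactis, present in every library, moved the median of all mRNAs by -0.33 on the log2 scale and called 912 mRNAs higher and 1611 lower. That scaling ended the call of 179 named mRNAs and turned the direction of none that was called, and this is stated beside each affected gene described here. In 5 equal bins of the mean level, the median log2 fold change was 0.59 in the lowest bin and between -0.20 and 0.02 in the others. Functions were followed with 47 lists that together held 1507 different genes, of which 27 had more members lower than higher and 20 the opposite.

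**Figure D1:**
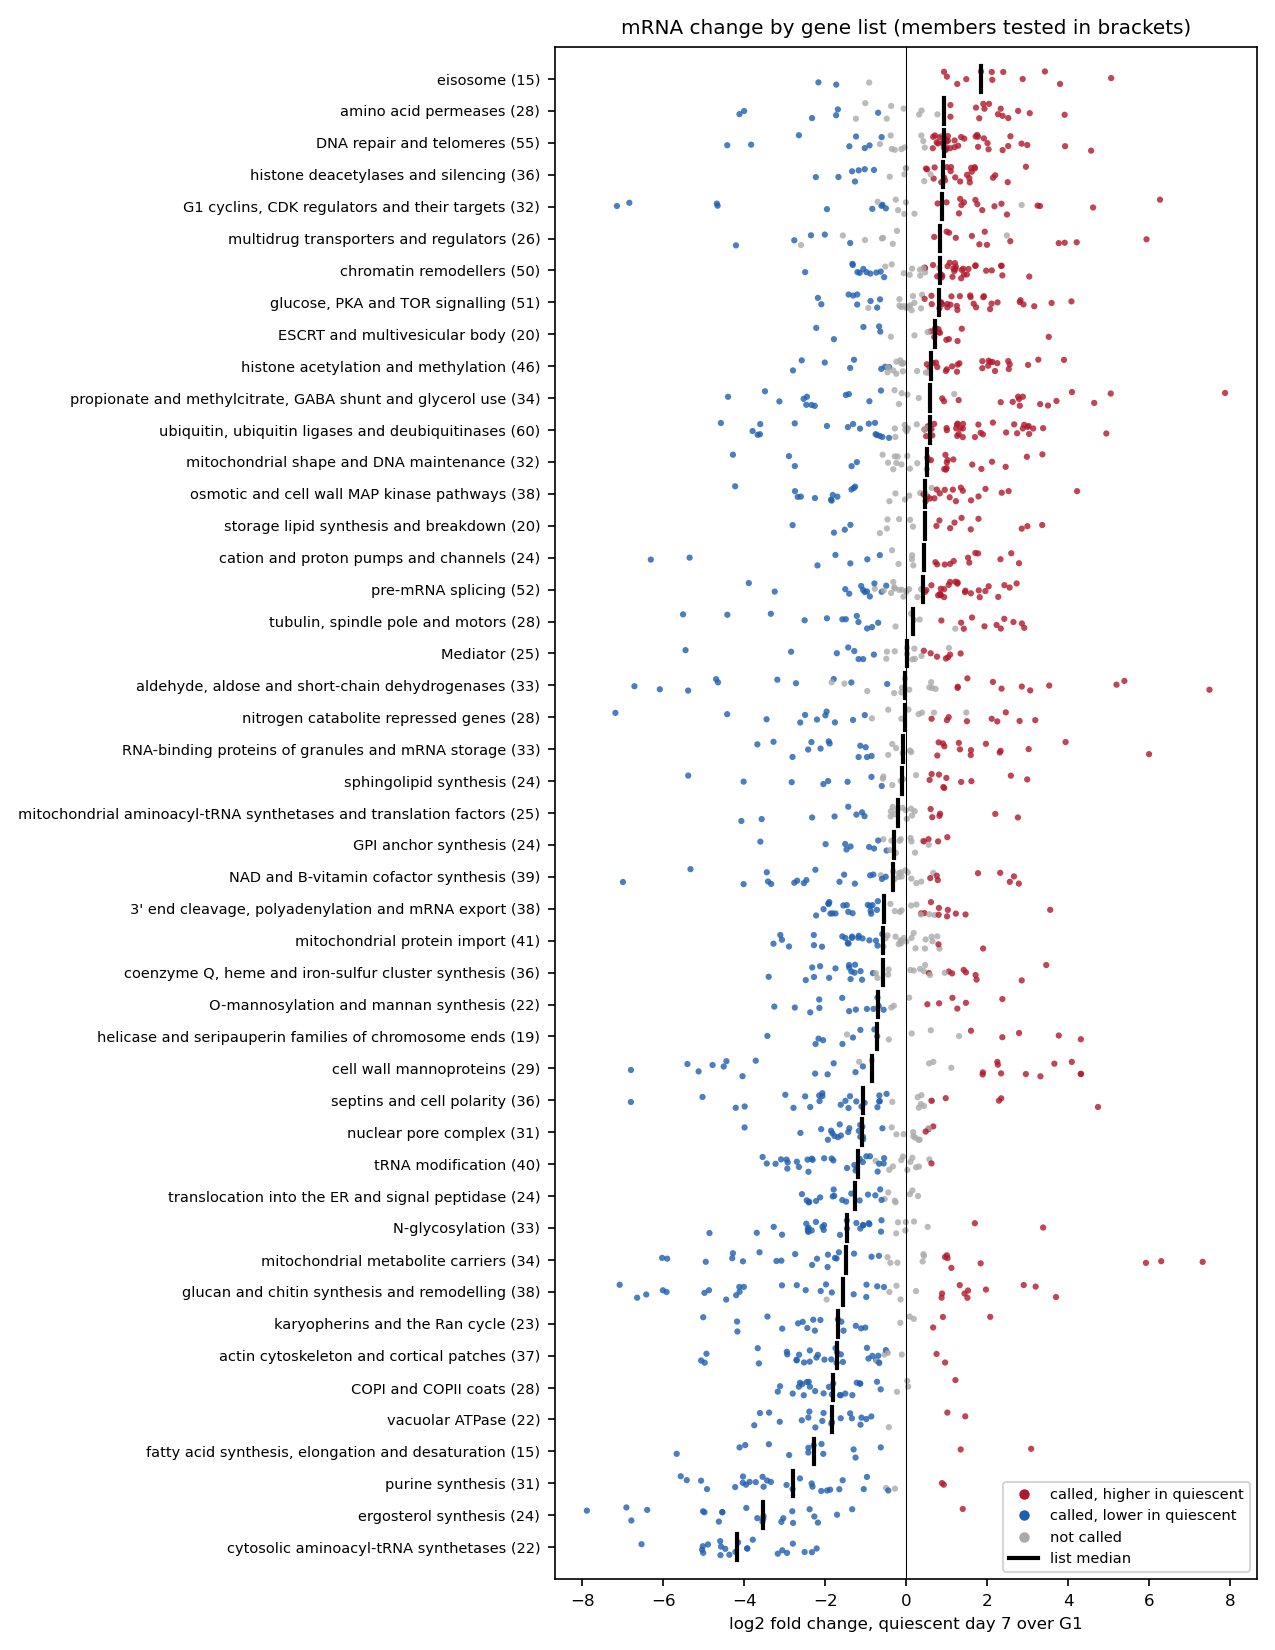
Log2 fold changes (quiescent day 7 over G1, x axis) of the tested members of each of the 47 lists, sorted by the list median (black bar). Red and blue points passed the test as higher and lower in quiescence. The eisosome list stands at the top with a median of 1.85 and the cytosolic aminoacyl-tRNA synthetases at the bottom with -4.18.

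The identity of the most abundant mRNAs changed between the states. Ranked by level per length (CPM divided by length and set to the same total in every library, here called TPM-like units), the G1 libraries were led by glycolytic enzymes, the small ribosomal protein genes RPL41A and RPL41B, the wall protein gene CCW12 and the a-factor genes MFA1 and MFA2, and the quiescent libraries by SPG1, GRE1, SPG4, TMA10, ADY2, SED1 and the mitochondrially encoded COX2 and COX3. TMA10, whose protein associates with ribosomes, had 10648 and 10012 TPM-like units in the quiescent replicates, against 197 and 196 TPM-like units in the G1 replicates. COX2, a subunit of cytochrome c oxidase, had 14605 and 36620.0 TPM-like units in quiescent cells and 2014 and 2437 TPM-like units in G1 cells on the same scale, and its quiescent replicates differed from each other by more than the G1 replicates did. Mitochondrially encoded mRNAs together made up 2.43% and 5.96% of mRNA reads in the quiescent replicates, against 0.535% and 0.567% in the G1 replicates. With 2 libraries in each group, the exact permutation test cannot go below p = 0.333. IRC13 and YGL088W also ranked among the highest, but these entries overlap the small nucleolar RNA genes snR17a and snR10 on the same strand, so their reads cannot be assigned to an mRNA. SED1, the major wall protein of stationary phase, had 16186 and 3589 CPM in quiescent cells and 3951 and 5181 CPM in G1 cells; its libraries did not separate by state and it did not pass the test (adjusted p = 0.13), except without quiescent replicate 2 or with DESeq2.

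Genes of the ergosterol pathway fell almost as a block. Ergosterol is the sterol of fungal membranes, and its synthesis needs oxygen, heme and much ATP. Of 24 tested members, 1 rose, 23 fell and 0 did not pass the test (median log2 fold change -3.54), and the list took up 0.103% and 0.0915% of the length-scaled mRNA total in the quiescent replicates, against 0.744% and 0.748% in the G1 replicates. ERG5, the C-22 sterol desaturase, showed 1.19 and 3.57 CPM in the quiescent replicates, against 487 and 557 CPM in the G1 replicates, a log2 fold change of -7.88 ± 0.59, adjusted p = 4.20e-06. ERG6, the C-24 sterol methyltransferase, showed 4.18 and 10.3 CPM in the quiescent replicates, against 889.9 and 768 CPM in the G1 replicates, a log2 fold change of -6.91 ± 0.59, adjusted p = 9.43e-06. They were named as the 2 largest falls of the list, so the gap between quiescent and G1 values follows from that choice. The member that rose was HMG2, the second isozyme of HMG-CoA reductase, the committed and rate-limiting step: it had 624 and 654 CPM in quiescent cells and 251 and 234 CPM in G1 cells (1.40 ± 0.22, adjusted p = 3.63e-04). Its partner HMG1 had 169.9 and 110.4 CPM in quiescent cells and 736 and 731 CPM in G1 cells (-2.38 ± 0.27, adjusted p = 4.60e-05), so that, by level per length, the higher of the 2 mRNAs was HMG2 in both quiescent libraries and HMG1 in both G1 libraries. With K. lactis scaling the call of HMG2 ended. With the Universal Plus kit the list gave 1 higher and 23 lower of 24, median -3.33, and HMG2 was again the member that was higher (1.96).

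**Figure D2:**
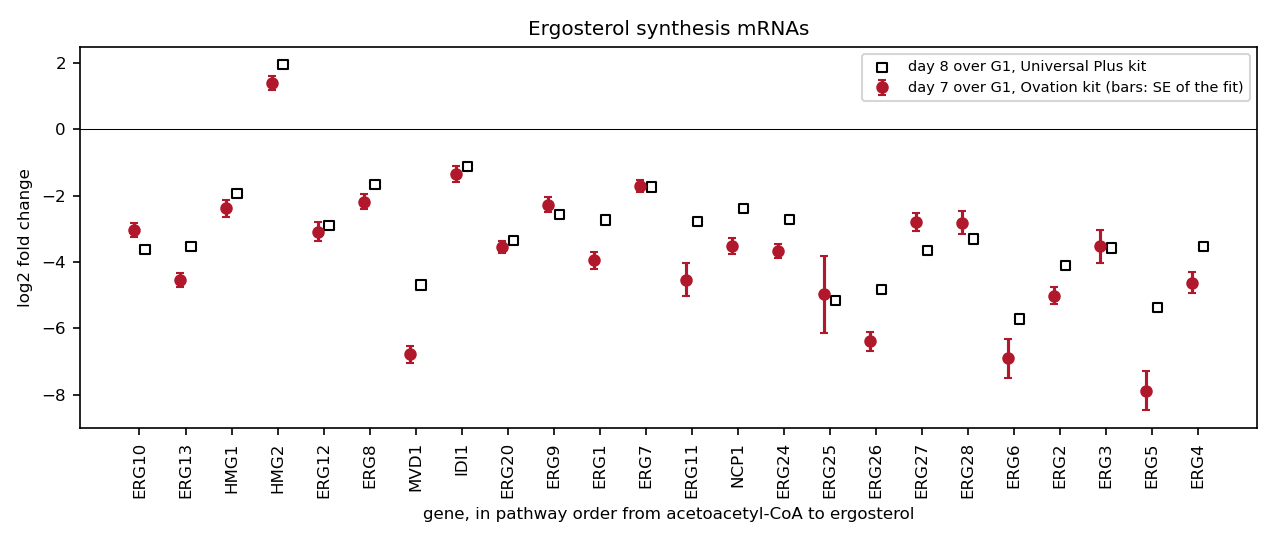
Log2 fold change of each ergosterol synthesis mRNA in pathway order, for day 7 over G1 (red, with the standard error of the fit) and day 8 over G1 (open squares). All lie below 0 except HMG2, at 1.40 for day 7 and 1.96 for day 8.

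Genes of fatty acid synthesis, elongation and desaturation mostly fell as well: of 15 tested members, 2 rose, 13 fell and 0 did not pass the test (median log2 fold change -2.28). ELO3, an elongase of very long chain fatty acids, showed 7.17 and 8.94 CPM in the quiescent replicates, against 373 and 436 CPM in the G1 replicates, and its log2 fold change was -5.67 ± 0.24, adjusted p = 4.98e-07. ELO2, which acts in the same elongation cycle, changed by -4.11 ± 0.20, adjusted p = 6.78e-07, and ACC1, the acetyl-CoA carboxylase that starts fatty acid synthesis, by -2.05 ± 0.24, adjusted p = 6.35e-05. The 2 members that rose were the acyl-CoA synthetases that activate imported or released fatty acids. FAA1 had 2148 and 3619 CPM in quiescent cells and 326 and 353 CPM in G1 cells (3.09 ± 0.30, adjusted p = 1.80e-05). FAA4 had 1849 and 1581 CPM in quiescent cells and 711 and 638 CPM in G1 cells (1.35 ± 0.27, adjusted p = 0.00186), a call that ended with K. lactis scaling and in the test against a 2-fold change. Both synthetases were also higher at day 8, with log2 fold changes of 3.84 and 1.40.

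Genes of storage lipid were mixed: of 20 tested members, 10 rose, 4 fell and 6 did not pass the test (median log2 fold change 0.46). TLD1, a protein of lipid droplets, had 226 and 312 CPM in quiescent cells and 29.4 and 22.9 CPM in G1 cells (3.36 ± 0.26, adjusted p = 4.59e-06), and the lipase gene TGL2 44.8 and 47.4 CPM in quiescent cells and 5.70 and 5.83 CPM in G1 cells (2.99 ± 0.23, adjusted p = 5.22e-06). The steryl ester hydrolase gene YEH1 moved the other way, with 15.8 and 20.1 CPM in quiescent cells and 144 and 105 CPM in G1 cells (-2.80 ± 0.25, adjusted p = 1.23e-05), as did a second hydrolase of this type, TGL1 (-1.78 ± 0.30, adjusted p = 5.45e-04). ARE1, which esterifies sterols for storage, rose (1.37 ± 0.18, adjusted p = 1.35e-04), though not with K. lactis scaling. Sphingolipid genes were split between 10 higher and 8 lower of 24, and the count of higher members was 6 without G1 replicate 2. The mRNA of LCB1, a subunit of the first enzyme of the pathway, serine palmitoyltransferase, fell (-4.01 ± 0.22, adjusted p = 1.02e-06), as did ISC1, a phospholipase C that breaks down inositol sphingolipids (-5.38 ± 0.26, adjusted p = 6.78e-07). SUR1, which adds mannose to inositol phosphorylceramide, had 901 and 1368 CPM in quiescent cells and 152 and 133 CPM in G1 cells (2.99 ± 0.26, adjusted p = 1.03e-05), and the ceramidase gene YPC1 rose too (2.59 ± 0.19, adjusted p = 3.76e-06).

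At the plasma membrane, the eisosome list had the highest median of the 47 (1.85): of 15 tested members, 12 rose, 2 fell and 1 did not pass the test. Eisosomes are the protein scaffolds under furrows of the plasma membrane that hold nutrient transporters and sphingolipid sensors. FMP45, an integral protein of these domains, had 1049.7 and 596 CPM in quiescent cells and 22.6 and 26.7 CPM in G1 cells (5.06 ± 0.36, adjusted p = 3.31e-06). NCE102, a sphingolipid-responsive regulator of the domain, had 1372 and 757 CPM in quiescent cells and 67.1 and 85.9 CPM in G1 cells (3.80 ± 0.32, adjusted p = 7.96e-06). Both core scaffold genes were higher, PIL1 by 2.11 ± 0.21, adjusted p = 2.01e-05 and LSP1 by 2.40 ± 0.31, adjusted p = 1.04e-04. TOS7 fell (-1.73 ± 0.19, adjusted p = 4.17e-05), and so did SUR7 (-2.17 ± 0.67, adjusted p = 0.0162), a call that was lost without quiescent replicate 2 and in the test against a 2-fold change. The eisosome genes took up 1.04% and 0.619% of the length-scaled mRNA total in the quiescent replicates, against 0.130% and 0.141% in the G1 replicates. The 2 quiescent replicates differed in several of them, while both remained above both G1 replicates for FMP45, NCE102, PIL1 and LSP1.

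At day 7, the mRNA of the plasma membrane proton pump PMA1 and most mRNAs of the vacuolar pump fell. PMA1, the plasma membrane H+-ATPase that sets the membrane potential, had 113 and 130.5 CPM in the quiescent replicates, against 4179.9 and 5745 CPM in the G1 replicates (-5.35 ± 0.31, adjusted p = 1.20e-06); at day 8 its log2 fold change was -1.74 and did not pass the test. Its close relative PMA2 had 15.5 and 10.3 CPM in quiescent cells and 14.1 and 19.3 CPM in G1 cells and did not pass the test at day 7 (adjusted p = 0.343). At day 8 PMA2 was called higher in quiescence, with a log2 fold change of 2.32. The vacuolar H+-ATPase, which acidifies the vacuole, had 19 of 22 members lower (median log2 fold change -1.84). VMA5, subunit C of the soluble sector, had 34.3 and 21.9 CPM in quiescent cells and 353 and 344 CPM in G1 cells (-3.61 ± 0.25, adjusted p = 2.69e-06), and the assembly factor PKR1 changed by -3.75 ± 0.31, adjusted p = 7.20e-06. The 2 members that rose, RAV1 (1.02 ± 0.17, adjusted p = 4.93e-04) and RAV2 (1.46 ± 0.24, adjusted p = 4.88e-04), belong to RAVE, the complex that puts the 2 sectors of the pump back together after they have come apart. Both RAVE calls ended with K. lactis scaling, and that of RAV1 also in the test against a 2-fold change. Of the 2 forms of the membrane subunit a, the vacuolar VPH1 fell (-2.42 ± 0.20, adjusted p = 8.23e-06). STV1, the Golgi and endosome form, had 215 and 289 CPM in quiescent cells and 353 and 325 CPM in G1 cells. It passed the test only without quiescent replicate 2 (adjusted p = 0.0629 with all libraries). At day 8 both forms were called lower, VPH1 by -1.69 and STV1 by -1.01.

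Among the other transporters, 12 of 24 cation pumps and channels rose and 7 fell. FIG1, which takes part in calcium entry during mating, was among the lowest in quiescence, with 11.3 and 23.7 CPM in quiescent cells and 1325 and 1385 CPM in G1 cells (-6.31 ± 0.50, adjusted p = 6.12e-06). The sodium pump gene ENA1 had 245 and 834 CPM in quiescent cells and 103 and 75.1 CPM in G1 cells (2.60 ± 0.50, adjusted p = 0.00126), and the putative potassium/proton antiporter gene KHA1 609 and 1330.0 CPM in quiescent cells and 135 and 145 CPM in G1 cells (2.79 ± 0.34, adjusted p = 8.46e-05). In the multidrug transporter list, of 26 tested members, 13 rose, 5 fell and 8 did not pass the test (median log2 fold change 0.85); 3 fell without quiescent replicate 1. PDR10, an ABC transporter of the plasma membrane, reached 3192 and 5813 CPM in the quiescent replicates, against 80.7 and 66.4 CPM in the G1 replicates (5.94 ± 0.38, adjusted p = 1.78e-06). The polyamine exporter gene TPO1 had 7.47 and 9.83 CPM in quiescent cells and 99.4 and 215 CPM in G1 cells (-4.20 ± 0.48, adjusted p = 4.96e-05), and its G1 replicates differed from each other by more than its quiescent replicates. Of the ESCRT genes, which sort ubiquitinated membrane proteins into the vacuole, 12 of 20 rose, or 6 without G1 replicate 2, and 5 fell. DOA4, the deubiquitinase that recovers ubiquitin at this step, had 559.6 and 1126 CPM in quiescent cells and 53.8 and 92.8 CPM in G1 cells (3.52 ± 0.44, adjusted p = 9.61e-05). The ESCRT-I subunits STP22 (-2.22 ± 0.32, adjusted p = 2.30e-04) and MVB12 (-1.78 ± 0.34, adjusted p = 0.00135) were lower.

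Most genes of the early secretory pathway fell. None of the 24 tested genes for translocation into the endoplasmic reticulum (ER) rose, and 17 fell (median log2 fold change -1.25). The catalytic subunit of signal peptidase, SEC11, had 2.99 and 6.25 CPM in quiescent cells and 26.0 and 26.7 CPM in G1 cells (-2.57 ± 0.34, adjusted p = 1.39e-04), and SRP68 of the signal recognition particle 29.3 and 66.1 CPM in quiescent cells and 258 and 258 CPM in G1 cells (-2.46 ± 0.33, adjusted p = 1.43e-04). Vesicle coats fell in 24 of 28 members (median log2 fold change -1.82). COP1, the alpha subunit of the COPI coat, had 115 and 125 CPM in quiescent cells and 1030.0 and 1125 CPM in G1 cells (-3.17 ± 0.19, adjusted p = 1.34e-06). The GTPase gene ARF1, which recruits that coat, fell (-3.11 ± 0.26, adjusted p = 7.19e-06), whereas its near-identical copy ARF2 had 704 and 1164 CPM in quiescent cells and 398 and 406 CPM in G1 cells and rose (1.22 ± 0.24, adjusted p = 0.00154), a call that ended with K. lactis scaling and in the test against a 2-fold change. ARF1 had 57.6 and 95.6 CPM in quiescent cells and 682 and 638 CPM in G1 cells, and by level per length the more abundant of the pair was ARF2 in both quiescent libraries and ARF1 in both G1 libraries.

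Glycosylation genes were mostly lower. N-glycosylation had 25 of 33 genes lower (median log2 fold change -1.46), among them CAX4, which recycles the dolichol carrier (-4.86 ± 0.46, adjusted p = 1.72e-05), and the mannosyltransferase gene ALG3 (-3.69 ± 0.33, adjusted p = 1.18e-05). The 2 that rose encode the first steps of the lipid-linked sugar, ALG14 with 58.8 and 49.6 CPM in quiescent cells and 4.56 and 5.83 CPM in G1 cells (3.38 ± 0.25, adjusted p = 3.60e-06) and ALG7 with 63.3 and 103 CPM in quiescent cells and 23.5 and 27.6 CPM in G1 cells (1.70 ± 0.28, adjusted p = 5.22e-04), the second of which was not called with K. lactis scaling. In O-mannosylation and mannan synthesis, 6 rose and 13 fell of 22. PMT4, an O-mannosyltransferase of the ER, was lower (-2.75 ± 0.22, adjusted p = 6.86e-06), and so was the Golgi mannosyltransferase gene KTR3 (-3.26 ± 0.19, adjusted p = 1.33e-06). MNN4, which promotes addition of phosphomannose to the outer chains, had 205 and 426 CPM in quiescent cells and 64.1 and 57.2 CPM in G1 cells (2.38 ± 0.31, adjusted p = 1.24e-04). GPI anchor synthesis showed the smallest shift of these lists (median log2 fold change -0.31), with 4 higher, or 2 without either G1 replicate, and 9 lower of 24.

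Cell wall genes had large changes in both directions. Among glucan and chitin genes, 10 rose and 23 fell of 38 (median log2 fold change -1.57). The transglycosylase gene UTR2, which links chitin to glucan, had 3.88 and 4.47 CPM in the quiescent replicates, against 580.0 and 539 CPM in the G1 replicates (-7.07 ± 0.30, adjusted p = 4.98e-07). SCW10, a wall glucanase-like protein, had 26.0 and 33.1 CPM in the quiescent replicates, against 2918 and 2957 CPM in the G1 replicates (-6.64 ± 0.30, adjusted p = 5.17e-07). The glucan synthase subunits ran in opposite directions: FKS1, the form of growing cells, had 764 and 670.2 CPM in quiescent cells and 4483 and 4839 CPM in G1 cells (-2.70 ± 0.34, adjusted p = 9.76e-05). GSC2, its alternative under stress and starvation, had 8693 and 7408 CPM in quiescent cells and 2023 and 2089 CPM in G1 cells (1.97 ± 0.35, adjusted p = 7.84e-04). By level per length, GSC2 mRNA was the more abundant of the 2 in both quiescent libraries and FKS1 mRNA in both G1 libraries. The third member, FKS3, rose by 1.44 ± 0.25, adjusted p = 7.95e-04 and lost its call with K. lactis scaling. KNH1, a homologue of a glucan synthesis gene, rose (3.70 ± 0.43, adjusted p = 5.56e-05), as did SKN1, which acts in beta-1,6-glucan synthesis (2.90 ± 0.26, adjusted p = 1.13e-05). CHS3, which makes the bulk of wall chitin, fell (-3.07 ± 0.20, adjusted p = 1.90e-06), and CHS1, the repair enzyme, had 1532 and 1676 CPM in quiescent cells and 1789 and 1999 CPM in G1 cells and did not pass the test (adjusted p = 0.391).

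Of the wall mannoproteins, 11 rose and 13 fell of 29 (median log2 fold change -0.85). CCW12, one of the most abundant wall proteins of growing cells, had 314 and 87.6 CPM in the quiescent replicates, against 7525 and 9542 CPM in the G1 replicates (-5.40 ± 0.69, adjusted p = 1.04e-04). PRY2, a secreted sterol-binding protein, had 6.57 and 4.91 CPM in quiescent cells and 597 and 706 CPM in G1 cells (-6.80 ± 0.38, adjusted p = 1.05e-06). PIR3 (4.09 ± 0.24, adjusted p = 1.20e-06), TIR2 (3.66 ± 0.62, adjusted p = 6.20e-04) and SPI1 (3.32 ± 0.54, adjusted p = 4.79e-04) were higher; TIR proteins are known from cold and anaerobic cells and SPI1 from stationary phase. The quiescent replicates spread widely here, as in SPI1 with 259.8 and 68.8 CPM in quiescent cells and 15.5 and 17.7 CPM in G1 cells. At day 8 the median of this list was 0.62, with 14 higher and 9 lower, and the median was -0.74 with K. lactis scaling.

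Most genes of the actin cytoskeleton fell: of 37 tested members, 2 rose, 29 fell and 6 did not pass the test (median log2 fold change -1.72). ACT1, the actin gene often used as a reference in expression assays, had 159 and 149.7 CPM in the quiescent replicates, against 4336 and 5372 CPM in the G1 replicates (-4.98 ± 0.27, adjusted p = 1.02e-06). ABP1, an actin-binding protein of cortical patches, had 15.5 and 13.0 CPM in quiescent cells and 453 and 508 CPM in G1 cells (-5.06 ± 0.25, adjusted p = 7.27e-07). Both tropomyosin genes, whose products stabilise actin cables, were lower, TPM1 by -2.94 ± 0.18, adjusted p = 1.49e-06 and TPM2 by -1.74 ± 0.25, adjusted p = 2.28e-04. The exceptions were BNI1, a formin that nucleates cables (0.96 ± 0.20, adjusted p = 0.00233), and SLA1, an adaptor of endocytic patches (0.75 ± 0.18, adjusted p = 0.0045). Their calls ended with K. lactis scaling and in the test against a 2-fold change, and that of SLA1 also without G1 replicate 1.

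Polarity and septin genes were mostly lower as well, with 5 higher and 24 lower of 36; 9 were higher without quiescent replicate 2. GIC2, an effector of the polarity GTPase Cdc42, had 4.18 and 2.23 CPM in quiescent cells and 356 and 393 CPM in G1 cells (-6.80 ± 0.32, adjusted p = 5.81e-07), and the septin gene CDC10 had 2.69 and 6.70 CPM in quiescent cells and 143 and 146 CPM in G1 cells (-5.03 ± 0.31, adjusted p = 1.61e-06). SPR28, a septin known from sporulating cells, had 22.1 and 27.3 CPM in quiescent cells and 1.37 and 0.448 CPM in G1 cells (4.74 ± 0.47, adjusted p = 2.00e-05). The 8 markers of sporulation summed to 4146 and 2850.4 CPM in quiescence against 21.7 and 22.0 CPM in G1, nearly all from SPS100, a spore wall gene with 4105 and 2803 CPM in quiescent cells and 1.82 and 2.24 CPM in G1 cells. Of the 7 markers that could be tested, 4 were higher and 0 lower. Besides SPS100 these were SPS4 with 9.86 and 18.8 CPM in quiescent cells and 1.14 and 0.897 CPM in G1 cells, SPS1 with 8.06 and 10.3 CPM in quiescent cells and 2.51 and 2.91 CPM in G1 cells and DIT1 with 11.6 and 7.15 CPM in quiescent cells and 4.33 and 4.04 CPM in G1 cells. The call of SPS1 ended with K. lactis scaling, and that of DIT1 with K. lactis scaling, against a 2-fold change, without either G1 replicate and without quiescent replicate 1. DIT2, with 2.39 and 3.57 CPM in quiescent cells and 2.74 and 1.79 CPM in G1 cells, did not pass the test, nor did NDT80 or SSP1, and SPS2 was not tested. The regulator NDT80 had 4.48 and 3.57 CPM in quiescent cells and 5.47 and 5.38 CPM in G1 cells, SSP1 3.29 and 4.02 CPM in quiescent cells and 3.65 and 4.04 CPM in G1 cells, and SPS2 0.597 and 0 CPM in quiescent cells and 0 and 0.673 CPM in G1 cells. Their part in the SPR28 result was not tested.

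Microtubule genes had members in both directions, much as all mRNAs did. Tubulin genes were lower: TUB2, beta-tubulin, changed by -3.34 ± 0.30, adjusted p = 1.17e-05, and the minor alpha-tubulin gene TUB3 had 4.18 and 5.81 CPM in quiescent cells and 219.9 and 226 CPM in G1 cells (-5.51 ± 0.22, adjusted p = 4.98e-07), against -1.18 ± 0.22, adjusted p = 0.00123 for the major gene TUB1, whose call ended with K. lactis scaling and in the test against a 2-fold change. CIK1, which directs the motor Kar3 in mating and mitosis, fell (-4.42 ± 0.26, adjusted p = 1.20e-06). Among those that rose were SPC97 of the gamma-tubulin complex with 108 and 84.9 CPM in quiescent cells and 14.1 and 11.4 CPM in G1 cells (2.92 ± 0.25, adjusted p = 1.01e-05) and MPS3, which anchors the spindle pole body in the nuclear envelope (2.86 ± 0.24, adjusted p = 7.63e-06). Over the list, 11 rose and 12 fell of 28, near the shares over all mRNAs (36.6% higher and 37.8% lower). The list median was 0.16, -0.18 with K. lactis scaling and -0.32 at day 8.

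Most mRNAs for transport across the nuclear envelope were lower. In the nuclear pore list, of 31 tested members, 3 rose, 19 fell and 9 did not pass the test (median log2 fold change -1.08), and 1 was higher without G1 replicate 1 or without quiescent replicate 1. NUP188 of the inner ring had 17.6 and 29.5 CPM in quiescent cells and 358 and 381 CPM in G1 cells (-3.99 ± 0.27, adjusted p = 2.48e-06), and NUP145, the precursor of 2 pore proteins, changed by -2.61 ± 0.18, adjusted p = 2.68e-06. Among karyopherins and the Ran cycle, 3 rose and 17 fell of 23. The importin gene KAP122 had 14.9 and 15.6 CPM in quiescent cells and 280.1 and 272 CPM in G1 cells (-4.18 ± 0.19, adjusted p = 5.85e-07). The 2 Ran GTPase genes crossed over: GSP1, the essential copy, had 32.0 and 42.9 CPM in quiescent cells and 1136 and 1266 CPM in G1 cells (-5.01 ± 0.25, adjusted p = 7.51e-07). GSP2, the copy known to be repressed by glucose, had 183 and 128 CPM in quiescent cells and 34.2 and 39.7 CPM in G1 cells (2.08 ± 0.22, adjusted p = 3.65e-05). The 2 genes are close copies, as are ARF1 and ARF2, TUB1 and TUB3, and RPL40A and RPL40B, so reads placed in both would have been left out of these counts and their levels are less certain.

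**Figure D3:**
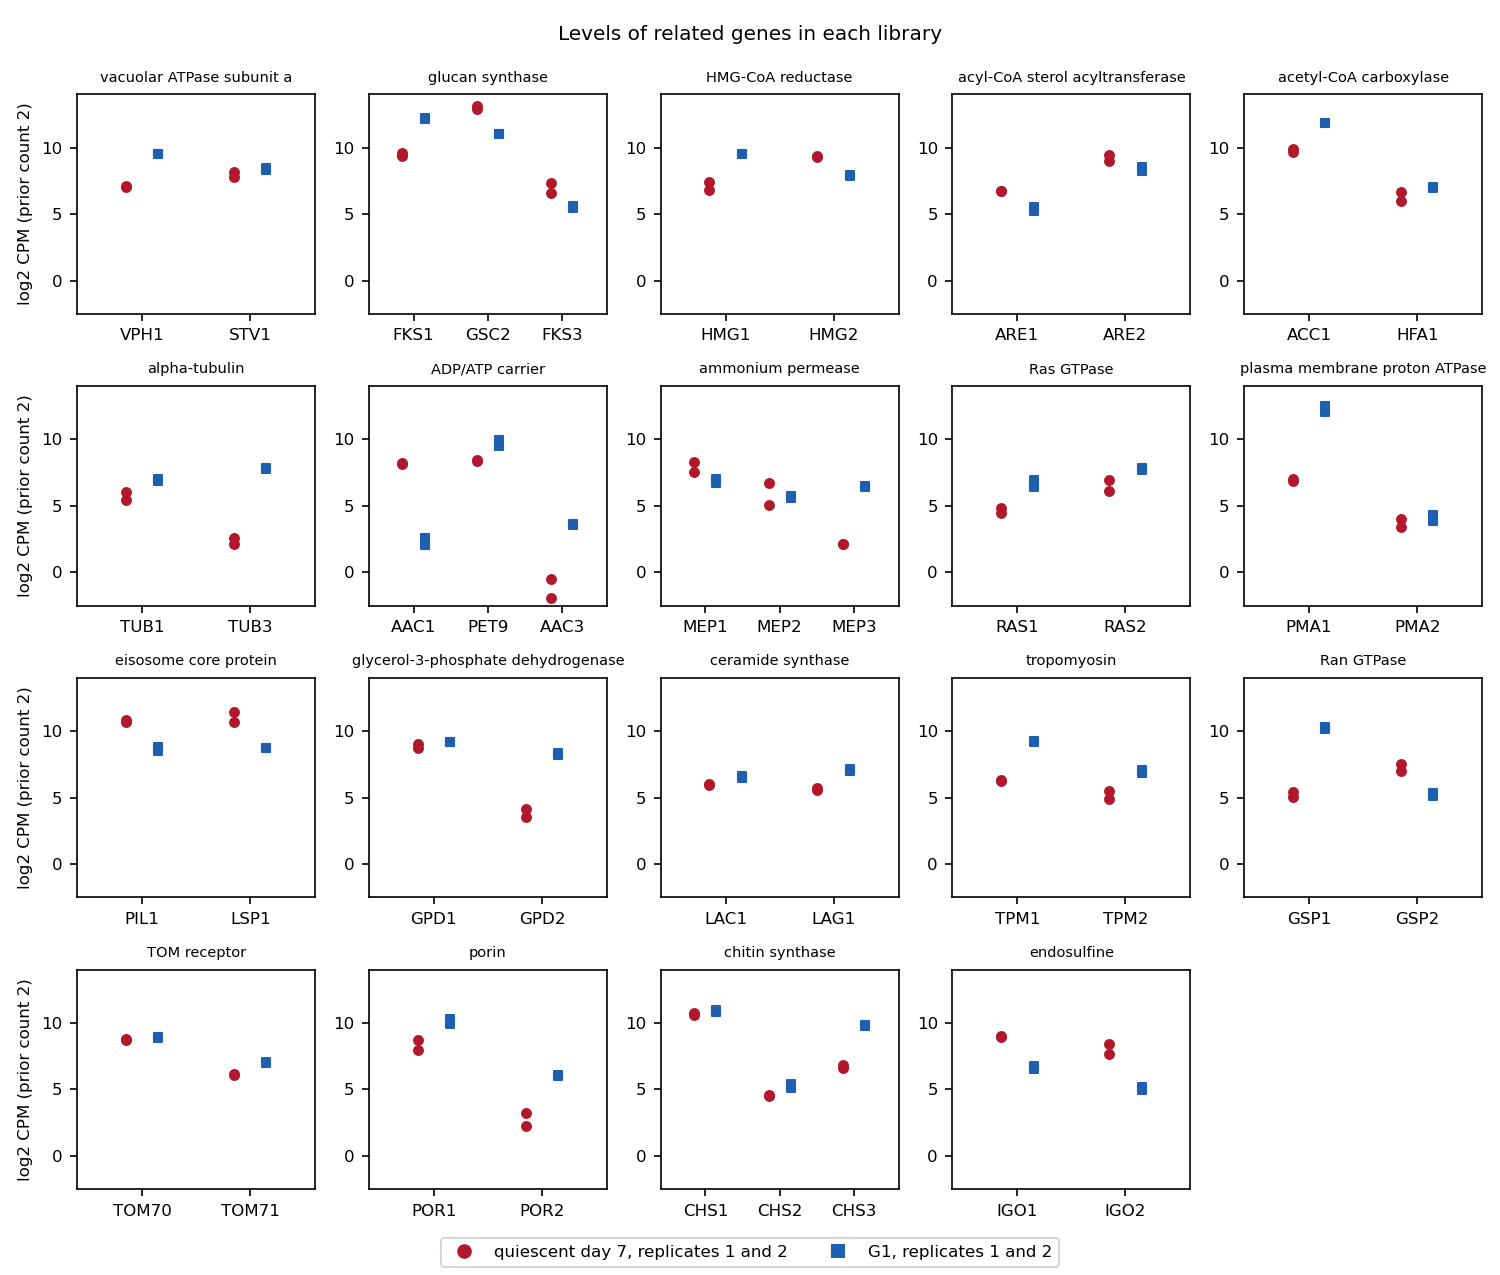
Log2 CPM of each gene of 19 sets of related genes in every library, with the quiescent day 7 replicates (red circles) to the left of the G1 replicates (blue squares). In the glucan synthase, HMG-CoA reductase, ADP/ATP carrier and Ran GTPase sets, some members lie higher in quiescence and others in G1; the log2 fold changes of GSP1 and GSP2 were -5.01 and 2.08.

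Genes for mitochondrial work did not move as a unit. In protein import, of 41 tested members, 2 rose, 20 fell and 19 did not pass the test (median log2 fold change -0.56), and the number higher ranged from 1 without either G1 replicate to 6 without quiescent replicate 1. MDM10, an outer membrane protein of the sorting and tethering complexes, fell (-3.28 ± 0.25, adjusted p = 4.61e-06), as did PAM18, a J-protein of the import motor (-3.11 ± 0.21, adjusted p = 2.38e-06). TIM21, which links import to the respiratory chain, had 286 and 348 CPM in quiescent cells and 87.8 and 82.1 CPM in G1 cells (1.90 ± 0.17, adjusted p = 1.01e-05), a call lost with K. lactis scaling. Among metabolite carriers, 8 rose and 20 fell of 34, with large changes in each direction. CRC1, the carnitine carrier that brings acetyl units into the matrix, had 169.6 and 271 CPM in the quiescent replicates, against 1.14 and 1.57 CPM in the G1 replicates (7.32 ± 0.61, adjusted p = 7.55e-06). SFC1, the succinate/fumarate carrier needed for growth on acetate, had 25.7 and 139.8 CPM in the quiescent replicates, against 0.228 and 1.79 CPM in the G1 replicates (6.30 ± 1.23, adjusted p = 0.00257), with quiescent replicates that differed by more than those of CRC1. The GTP/GDP carrier gene GGC1 had 3.58 and 4.47 CPM in quiescent cells and 230.4 and 288 CPM in G1 cells (-6.03 ± 0.26, adjusted p = 4.98e-07).

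The 3 ADP/ATP carriers, which exchange mitochondrial ATP for cytosolic ADP, each had their own pattern. AAC1, the minor aerobic form, had 296 and 281 CPM in quiescent cells and 3.88 and 5.60 CPM in G1 cells (5.92 ± 0.26, adjusted p = 4.98e-07). PET9, the major form, had 337 and 357 CPM in quiescent cells and 708 and 984 CPM in G1 cells (-1.29 ± 0.21, adjusted p = 5.34e-04), a fall that did not hold with K. lactis scaling or against a 2-fold change. AAC3, the anaerobic form, had 0 and 1 reads in quiescence and 51 and 53 reads in G1 (adjusted p = 1.43e-04). By level per length, AAC1 had 339 and 281 TPM-like units in quiescent cells and 3.33 and 4.77 TPM-like units in G1 cells, and PET9 had 376 and 347 TPM-like units in quiescent cells and 591 and 813 TPM-like units in G1 cells. Both porin genes of the outer membrane fell, POR1 by -1.76 ± 0.28, adjusted p = 4.70e-04 and POR2 by -3.20 ± 0.29, adjusted p = 1.20e-05.

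For mitochondrial shape and DNA, 16 of 32 members rose and 5 fell, or 8 without quiescent replicate 1. NUM1, the cortical anchor of mitochondria, had 3361 and 4480.2 CPM in quiescent cells and 374 and 387 CPM in G1 cells (3.36 ± 0.27, adjusted p = 5.87e-06), and MDM32, an inner membrane protein of mitochondrial distribution, 202 and 328 CPM in quiescent cells and 29.0 and 38.1 CPM in G1 cells (2.98 ± 0.30, adjusted p = 2.33e-05). MIC60, the core of the cristae organising complex, was lower (-2.89 ± 0.21, adjusted p = 3.79e-06). In coenzyme Q, heme and iron-sulfur synthesis, 9 rose and 16 fell of 36. The iron-sulfur scaffold gene ISU1 had 1282 and 2098 CPM in quiescent cells and 125 and 182 CPM in G1 cells (3.46 ± 0.34, adjusted p = 2.01e-05), and ISA1, which acts later in cluster delivery, 384 and 334 CPM in quiescent cells and 50.4 and 48.9 CPM in G1 cells (2.85 ± 0.21, adjusted p = 3.64e-06). COQ2, an early enzyme of coenzyme Q synthesis (-3.40 ± 0.31, adjusted p = 1.37e-05), and HEM15, ferrochelatase (-2.48 ± 0.20, adjusted p = 6.99e-06), were lower. Mitochondrial aminoacyl-tRNA synthetases and translation factors had 6 higher and 8 lower of 25, with 3 higher without G1 replicate 2 or quiescent replicate 2.

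Small-molecule carbon use changed gene by gene, with 16 of 34 genes higher and 12 lower. CIT3, the citrate and methylcitrate synthase of the propionate pathway, had 1108 and 1767 CPM in the quiescent replicates, against 5.47 and 6.73 CPM in the G1 replicates (7.88 ± 0.35, adjusted p = 5.17e-07). STL1, a glycerol importer that glucose inactivates, had 52.3 and 46.0 CPM in quiescent cells and 0.684 and 2.24 CPM in G1 cells (5.05 ± 0.37, adjusted p = 3.50e-06). The glycerol synthesis genes GPD2 (-4.40 ± 0.23, adjusted p = 8.82e-07) and GPP2 (-3.49 ± 0.62, adjusted p = 8.47e-04) fell. At day 8 GPD2 was again lower (-2.41), while GPP2 did not pass the test (-0.48, adjusted p = 0.641). GPD1, the other glycerol-3-phosphate dehydrogenase, had 526 and 417 CPM in quiescent cells and 574 and 576 CPM in G1 cells and passed the test only without quiescent replicate 1 (adjusted p = 0.231 with all libraries). The 3 glycine cleavage genes of the list were lower, GCV1 by -2.45 ± 0.27, adjusted p = 4.38e-05, GCV2 by -1.49 ± 0.21, adjusted p = 1.75e-04 and GCV3 by -2.34 ± 0.37, adjusted p = 4.10e-04. At day 8 with the other kit GCV1 and GCV2 were higher in quiescence, with log2 fold changes of 0.40 and 1.66.

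Nitrogen genes likewise had members in both directions. Of 28 genes repressed by good nitrogen sources, 9 rose and 11 fell, near the shares over all mRNAs (36.6% and 37.8%). DAL80, itself a repressor of such genes, had 60.0 and 102 CPM in quiescent cells and 8.67 and 8.97 CPM in G1 cells (3.19 ± 0.36, adjusted p = 4.52e-05). Of the ammonium permeases, MEP3 had 4.18 and 4.02 CPM in quiescent cells and 86.2 and 90.6 CPM in G1 cells (-4.42 ± 0.24, adjusted p = 9.95e-07) and MEP1 rose (1.05 ± 0.26, adjusted p = 0.00508), except with K. lactis scaling and against a 2-fold change. MEP2 had 33.4 and 103 CPM in quiescent cells and 53.6 and 48.6 CPM in G1 cells and passed the test only without quiescent replicate 1 (adjusted p = 0.453 with all libraries). Amino acid permeases were shifted upward, with 14 higher and 6 lower of 28 (median log2 fold change 0.93). SSY1, the sensor of external amino acids, had 259 and 378 CPM in quiescent cells and 38.1 and 38.6 CPM in G1 cells (3.05 ± 0.22, adjusted p = 3.34e-06). The histidine permease gene HIP1 had 16.7 and 15.2 CPM in quiescent cells and 260.5 and 253 CPM in G1 cells (-4.00 ± 0.23, adjusted p = 1.28e-06), and SAM3, the S-adenosylmethionine permease gene, fell too (-4.12 ± 0.33, adjusted p = 6.16e-06).

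Purine synthesis fell in 27 of 31 genes (median log2 fold change -2.81), and the list took up 0.182% and 0.165% of the length-scaled mRNA total in the quiescent replicates, against 0.762% and 0.699% in the G1 replicates. GUA1, GMP synthase, had 22.4 and 43.3 CPM in the quiescent replicates, against 1392 and 1383 CPM in the G1 replicates (-5.42 ± 0.59, adjusted p = 3.76e-05), and AAH1, adenine deaminase, had 3.88 and 3.57 CPM in quiescent cells and 198 and 159 CPM in G1 cells (-5.57 ± 0.75, adjusted p = 1.59e-04). PRS2 and YNK1 were higher, by 0.93 ± 0.17, adjusted p = 0.00108 and 0.88 ± 0.20, adjusted p = 0.00303, but neither call held with K. lactis scaling or against a 2-fold change. Cofactor synthesis was more divided, with 8 higher and 18 lower of 39. The pantothenate branch fell: PAN6, pantothenate synthase, had 0.597 and 0.894 CPM in quiescent cells and 101 and 86.1 CPM in G1 cells (-6.99 ± 0.30, adjusted p = 4.98e-07), and PAN5 changed by -5.33 ± 0.25, adjusted p = 6.39e-07. RIB1, the first enzyme of riboflavin synthesis, had 422 and 593 CPM in quiescent cells and 69.8 and 90.6 CPM in G1 cells (2.66 ± 0.29, adjusted p = 3.72e-05), and the NAD kinase gene YEF1 rose (2.78 ± 0.34, adjusted p = 8.63e-05).

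All 22 tested genes of the cytosolic aminoacyl-tRNA synthetases and their cofactor Arc1 fell, and their median of -4.18 was the lowest of the 47 lists. These enzymes charge tRNAs with amino acids. Together they took up 0.0844% and 0.0787% of the length-scaled mRNA total in the quiescent replicates, against 0.923% and 0.905% in the G1 replicates. KRS1, the lysyl enzyme, had 22.1 and 29.5 CPM in the quiescent replicates, against 2278 and 2474 CPM in the G1 replicates (-6.53 ± 0.55, adjusted p = 7.90e-06), and GRS1, the glycyl enzyme, 20.6 and 44.7 CPM in the quiescent replicates, against 1085 and 1029 CPM in the G1 replicates (-5.04 ± 0.35, adjusted p = 2.74e-06). The smallest fall was that of ALA1, the alanyl enzyme, at -2.21. With K. lactis scaling the median was -4.58, and at day 8 it was -3.04, again with all 22 lower. Genes that modify tRNAs fell in 28 of 40 cases (median log2 fold change -1.18). TRM11, a guanosine methyltransferase subunit (-3.54 ± 0.42, adjusted p = 6.69e-05), and TRM9, which completes wobble uridine modification (-3.44 ± 0.25, adjusted p = 3.48e-06), led the fall. UBA4 alone was higher (0.63 ± 0.21, adjusted p = 0.0218), and this call was lost when any of the 4 libraries was left out, with K. lactis scaling and against a 2-fold change.

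RNA processing genes were divided. In pre-mRNA splicing, 26 of 52 rose and 12 fell (median log2 fold change 0.42). CLF1, a scaffold of the Prp19-associated complex, had 318 and 573 CPM in quiescent cells and 84.6 and 66.8 CPM in G1 cells (2.55 ± 0.28, adjusted p = 4.01e-05), and SMX3, an Sm ring protein, 238 and 122 CPM in quiescent cells and 26.7 and 27.8 CPM in G1 cells (2.73 ± 0.30, adjusted p = 4.35e-05). The 2 largest falls were in factors that also serve ribosome synthesis, the helicase gene PRP43 (-3.89 ± 0.33, adjusted p = 8.92e-06) and SNU13, a protein of both spliceosomal and nucleolar particles (-3.25 ± 0.21, adjusted p = 2.03e-06). Of 3' end formation and export genes, 10 rose, or 6 without G1 replicate 2, and 19 fell of 38. GFD1, a partner of the export helicase Dbp5, had 602 and 879.7 CPM in quiescent cells and 69.8 and 56.0 CPM in G1 cells (3.56 ± 0.26, adjusted p = 3.50e-06), and HPR1 of the THO complex 21.5 and 25.9 CPM in quiescent cells and 94.6 and 99.1 CPM in G1 cells (-2.04 ± 0.18, adjusted p = 9.48e-06).

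RNA-binding proteins of granules and mRNA storage had 14 members higher and 13 lower of 33, near the shares over all mRNAs (36.6% and 37.8%). RIM4, a translational repressor known for forming aggregates in meiosis, had 357 and 874 CPM in the quiescent replicates, against 8.44 and 10.8 CPM in the G1 replicates (adjusted p = 7.20e-06). NGR1, which binds mRNAs for decay, had 3507 and 2945 CPM in the quiescent replicates, against 209 and 213 CPM in the G1 replicates (3.94 ± 0.29, adjusted p = 3.79e-06). The 2 endosulfines, which act below the Rim15 kinase and protect mRNAs on entry into quiescence, both rose, IGO1 with 499 and 503 CPM in quiescent cells and 106 and 92.6 CPM in G1 cells (2.33 ± 0.26, adjusted p = 4.86e-05) and IGO2 with 202 and 344 CPM in quiescent cells and 30.6 and 36.3 CPM in G1 cells (3.03 ± 0.28, adjusted p = 1.44e-05). The Pumilio-family gene MPT5 fell (-3.67 ± 0.20, adjusted p = 1.06e-06), as did TPA1, which binds poly(A) tails in translation termination (-3.28 ± 0.20, adjusted p = 1.38e-06).

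Chromatin and DNA repair lists had more members higher than lower. Of the chromatin remodellers, 29 of 50 rose and 11 fell (median log2 fold change 0.83). SWI1, a subunit of the SWI/SNF complex, had 1349 and 1196 CPM in the quiescent replicates, against 152 and 157 CPM in the G1 replicates (3.04 ± 0.25, adjusted p = 6.51e-06), and SNF2, its ATPase, 1211 and 1447 CPM in quiescent cells and 248 and 264 CPM in G1 cells (2.38 ± 0.20, adjusted p = 8.12e-06). IOC2, a partner of the remodeller Isw1, fell (-2.49 ± 0.18, adjusted p = 3.14e-06), as did the helicase gene RVB1 (-1.33 ± 0.16, adjusted p = 6.62e-05). Deacetylase and silencing genes rose in 23 of 36 cases and fell in 7. UME6, the DNA-binding partner of the Rpd3 deacetylase, had 526 and 309 CPM in quiescent cells and 51.5 and 56.0 CPM in G1 cells (2.96 ± 0.27, adjusted p = 1.35e-05), and HOS4 of the Set3 complex rose (2.51 ± 0.21, adjusted p = 9.06e-06). HDA1 (-2.23 ± 0.21, adjusted p = 1.40e-05) and HDA2 (-1.67 ± 0.23, adjusted p = 1.65e-04), which form a separate deacetylase, were lower.

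Histone acetylation and methylation genes showed 25 higher and 8 lower of 46, the second being 5 without either G1 replicate and with DESeq2. GIS1, a demethylase-family factor that acts below Rim15 after the diauxic shift, had 1898 and 1639 CPM in quiescent cells and 114 and 123 CPM in G1 cells (3.90 ± 0.23, adjusted p = 1.23e-06). LGE1, needed for ubiquitination of histone H2B, had 557 and 583 CPM in quiescent cells and 58.2 and 60.5 CPM in G1 cells (3.26 ± 0.18, adjusted p = 1.02e-06). VPS75, a histone chaperone, fell (-2.80 ± 0.24, adjusted p = 1.00e-05). Of the Mediator genes 7 rose and 8 fell of 25; the number higher was 2 without quiescent replicate 1 and 3 or 4 without a G1 replicate. The Mediator median was 0.02, or -0.25 with K. lactis scaling. Its tail subunit gene SIN4 had 25.4 and 29.0 CPM in quiescent cells and 191 and 198 CPM in G1 cells (-2.84 ± 0.17, adjusted p = 1.37e-06), and SRB2 of the head module 1.19 and 0 CPM in quiescent cells and 32.8 and 30.3 CPM in G1 cells (-5.45 ± 0.63, adjusted p = 5.36e-05).

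DNA repair and telomere genes rose in 37 of 55 cases and fell in 8 (median log2 fold change 0.93). RAD4, which recognises damage in nucleotide excision repair, had 527 and 843 CPM in the quiescent replicates, against 30.6 and 27.1 CPM in the G1 replicates (4.57 ± 0.27, adjusted p = 1.37e-06). MGT1, a methyltransferase that reverses alkylation of guanine, had 257 and 328 CPM in the quiescent replicates, against 21.4 and 17.0 CPM in the G1 replicates (3.92 ± 0.22, adjusted p = 1.11e-06). EST3, a subunit of telomerase, was lower with 1.19 and 2.68 CPM in quiescent cells and 39.7 and 38.6 CPM in G1 cells (-4.42 ± 0.34, adjusted p = 4.66e-06), and so was the base excision glycosylase gene NTG1 (-3.83 ± 0.37, adjusted p = 1.79e-05). PHR1, the photolyase, also fell (-2.65 ± 0.34, adjusted p = 1.15e-04). At day 8 the list gave 35 higher and 10 lower of 55, median 0.65, or -0.74 with K. lactis scaling.

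Among the glucose, PKA and TOR signalling genes, 29 of 51 rose and 9 fell (median log2 fold change 0.82). Of the branch that senses glucose at the surface, GPA2, its G protein, had 1052 and 1028 CPM in quiescent cells and 83.5 and 89.0 CPM in G1 cells (3.59 ± 0.24, adjusted p = 2.41e-06), and RGS2, which turns that G protein off, 209 and 276 CPM in quiescent cells and 18.2 and 10.3 CPM in G1 cells (4.08 ± 0.31, adjusted p = 4.42e-06). RAS1 fell (-2.10 ± 0.28, adjusted p = 1.46e-04), and RAS2 had 68.7 and 123 CPM in quiescent cells and 231 and 209 CPM in G1 cells, a fall (-1.21 ± 0.37, adjusted p = 0.016) that was lost without G1 replicate 1, without quiescent replicate 1 and against a 2-fold change. SRV2, which binds adenylate cyclase and actin, fell (-2.18 ± 0.16, adjusted p = 3.60e-06).

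The osmotic and cell wall MAP kinase list had 19 higher and 12 lower of 38. Its surface sensors moved apart, WSC4 with 108 and 33.5 CPM in quiescent cells and 3.19 and 4.48 CPM in G1 cells (4.22 ± 0.55, adjusted p = 1.21e-04) and WSC2 with 13.1 and 9.83 CPM in quiescent cells and 201 and 234 CPM in G1 cells (-4.22 ± 0.22, adjusted p = 7.95e-07). Both kinases at the end of these cascades were lower, HOG1 by -1.84 ± 0.30, adjusted p = 4.62e-04 and SLT2 by -1.70 ± 0.18, adjusted p = 2.88e-05, and SDP1, a phosphatase of Slt2, was higher (2.53 ± 0.30, adjusted p = 6.56e-05). For G1 cyclins and CDK regulators, 16 rose and 9 fell of 32, or 5 lower without G1 replicate 2. CLN3, the most upstream G1 cyclin, had 3.88 and 5.36 CPM in the quiescent replicates, against 707 and 576 CPM in the G1 replicates (-7.14 ± 0.44, adjusted p = 1.59e-06). PCL2, a cyclin of the kinase Pho85, had 5.08 and 7.15 CPM in quiescent cells and 657 and 715 CPM in G1 cells (-6.84 ± 0.25, adjusted p = 4.98e-07), and FAR1, the CDK inhibitor of the pheromone arrest, fell (-4.68 ± 0.36, adjusted p = 5.30e-06). XBP1, a repressor of cyclin genes under starvation, had 2246 and 1236 CPM in the quiescent replicates, against 17.3 and 27.8 CPM in the G1 replicates (6.27 ± 0.41, adjusted p = 1.95e-06). Of the 8 mitotic markers, 2 were higher and 3 lower (median log2 fold change -0.53). The higher ones were SWI5 (1.58 ± 0.39, adjusted p = 0.00502) and CDC20 (0.91). Both calls were lost with K. lactis scaling and against a 2-fold change, and that of CDC20 also in further runs given below. Among the lower ones was CLB2 (-2.22 ± 0.54, adjusted p = 0.00477).

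The ubiquitin list showed 33 higher and 17 lower of 60. CSR2, an arrestin that brings transporters to the ligase Rsp5, had 1027 and 1179 CPM in the quiescent replicates, against 35.4 and 36.3 CPM in the G1 replicates (4.94 ± 0.21, adjusted p = 4.98e-07). RMD5, the RING subunit of the GID ligase that degrades gluconeogenic enzymes, had 385 and 646 CPM in the quiescent replicates, against 45.6 and 53.1 CPM in the G1 replicates (3.38 ± 0.27, adjusted p = 6.62e-06). The ubiquitin genes fused to ribosomal proteins fell, RPS31 by -4.58 ± 0.26, adjusted p = 1.12e-06 and RPL40A by -3.79 ± 0.31, adjusted p = 6.51e-06. Aldehyde and aldose enzymes held large changes both ways, 11 higher and 10 lower of 33. BDH2, a relative of butanediol dehydrogenase, had 566 and 1371 CPM in quiescent cells and 23.7 and 22.4 CPM in G1 cells (5.39 ± 0.46, adjusted p = 8.86e-06). IRC15, a protein similar to dehydrogenases, had 302 and 191 CPM in quiescent cells and 1.82 and 0.897 CPM in G1 cells (7.49 ± 0.50, adjusted p = 2.16e-06). ADH6, a cinnamyl-type alcohol dehydrogenase, had 2.99 and 7.60 CPM in quiescent cells and 419.7 and 628 CPM in G1 cells (-6.71 ± 0.60, adjusted p = 1.17e-05), and OYE2, an NADPH oxidoreductase, 10.5 and 28.1 CPM in quiescent cells and 656 and 1889.7 CPM in G1 cells (-6.08 ± 1.01, adjusted p = 7.47e-04).

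Genes of chromosome ends exist in many near-identical copies, and 19 of the 30 listed had enough reads to test: 5 rose, or 2 without quiescent replicate 1, and 9 fell. PAU7, of the seripauperin family known from anaerobic and wine yeast, had 23.6 and 21.9 CPM in quiescent cells and 0.912 and 1.35 CPM in G1 cells (4.31 ± 0.35, adjusted p = 6.78e-06). COS2, of a family of unclear function, had 3 reads over both quiescent libraries and 53 over both G1 libraries (adjusted p = 0.00106). Reads placed in several copies are missing from these counts, so both values are uncertain.

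Outside the lists, the largest changes among mRNAs of at least moderate level (mean log2 CPM of 5 or more) included SIP18, a protein of desiccation tolerance on chromosome XIII, with 1482 and 1915 CPM in the quiescent replicates, against 1.82 and 1.35 CPM in the G1 replicates (10.05 ± 0.33, adjusted p = 4.98e-07). SPS100, described above, changed by 10.72 ± 0.46, adjusted p = 4.98e-07. Among those that fell were SSA2, a cytosolic Hsp70 chaperone of growing cells, with 7.47 and 18.8 CPM in the quiescent replicates, against 4353 and 5049 CPM in the G1 replicates (-8.53 ± 0.60, adjusted p = 2.99e-06), and TKL1, transketolase of the pentose phosphate pathway, with 2.99 and 7.15 CPM in the quiescent replicates, against 1755 and 1768 CPM in the G1 replicates (-8.51 ± 0.40, adjusted p = 5.92e-07). The mating genes FIG2, a wall adhesin, had 80.9 and 29.9 CPM in quiescent cells and 21112 and 25423 CPM in G1 cells (-8.70 ± 0.65, adjusted p = 4.01e-06), and PRM1, which acts in membrane fusion of mating cells, 1.79 and 5.81 CPM in quiescent cells and 1929.9 and 2078 CPM in G1 cells (-9.15 ± 0.52, adjusted p = 1.19e-06). These 6 genes were chosen from the largest changes. Their quiescent and G1 libraries did not overlap and each call held in every alternative run, which largely follows from that choice.

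Genes specific to alpha cells, the opposite mating type, were low in both states and higher in quiescence in 3 of 4 cases. STE3, the receptor for a-factor, had 44.5 and 32.2 CPM in quiescent cells and 1.14 and 2.24 CPM in G1 cells (4.49 ± 0.38, adjusted p = 8.91e-06). MF(ALPHA)1, which encodes alpha factor, had 30 and 8 reads in quiescence and 1 and 0 reads in G1. The a-cell receptor STE2 had 34.9 and 26.8 CPM in quiescent cells and 2641 and 2795 CPM in G1 cells (-6.45 ± 0.29, adjusted p = 5.26e-07).

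Most full-length retrotransposon elements had fewer reads in quiescence. Ty elements are the long terminal repeat retrotransposons of yeast, and Ty3 is known to be induced by mating pheromone. In the table of coding and structural RNAs, 45.3% of the 298 tested features that are not genes were higher and 34.6% lower. All 13 elements of the Ty2 class fell, as did 27 of 30 Ty1 elements, with medians of -3.35 and -3.81. The 2 Ty3 elements summed to 321 and 183 CPM in the quiescent replicates, against 33324 and 36275 CPM in the G1 replicates. Of the 3 Ty4 elements 1 fell (median -0.70), with a sum of 28.7 and 26.4 CPM in quiescence and 158 and 165 CPM in G1. The single Ty5 element had no reads in quiescence and 172 and 156 CPM in G1. Transposable elements with all their solo repeats made up 0.276 and 0.249 reads per 100 mRNA reads in the quiescent replicates, against 4.58 and 4.66 in the G1 replicates. Elements of a family share most of their sequence, so reads that fit several copies are missing here, and solo repeats (68 higher and 55 lower of 167) lie beside other genes.

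Small structural RNAs were mostly higher; with K. lactis scaling, 73 of the 298 features of their table were. Of 68 tested small nucleolar RNAs, 59 rose and 1 fell (median 2.01). Of 6 spliceosomal RNA entries, the 4 that could be tested rose. The U2 RNA LSR1 had 34642 and 62515 CPM in the quiescent replicates, against 10162 and 12669 CPM in the G1 replicates (log2 fold change 2.09 ± 0.44, adjusted p = 0.00216, a call lost with K. lactis scaling). The U1 RNA snR19 had 23609.9 and 43322 CPM in quiescent cells and 4079 and 3520.4 CPM in G1 cells (3.14 ± 0.42, adjusted p = 1.37e-04), the U4 RNA snR14 changed by 3.44 ± 0.38 and the U6 RNA snR6 by 3.39 ± 0.43. These levels are scaled to mRNA reads, so they move with the mRNA total as well as with the RNA itself. Relative to mRNA, small nucleolar RNAs gave 11.5 and 19.2 reads per 100 mRNA reads in quiescence, against 4.14 and 3.46 in G1.

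Some loci annotated as pseudogenes in the reference strain were expressed in quiescence. YLL016W (chromosome XII, 112847 to 115993, plus strand of R64), the larger piece of SDC25, a relative of the Ras exchange factor gene CDC25, had 799.7 and 681 CPM in the quiescent replicates, against 20.1 and 22.0 CPM in the G1 replicates (5.14 ± 0.27, adjusted p = 8.64e-07). Its neighbouring piece YLL017W (112234 to 112545) had 257 and 111 reads in quiescence and 2 and 0 reads in G1. Of the 10 pseudogenes tested, 4 rose and 3 fell.

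Reads also shifted toward genes that the table classes as uncharacterized. Open reading frames classed as uncharacterized had 348 of 777 higher and 202 lower (median 0.65), dubious ones 137 of 345 higher and 41 lower (median 1.45), and verified ones 1684 of 4821 higher and 2022 lower (median -0.19). Over all features of that table, 36.9% were higher and 37.9% lower. Chosen after their values were seen, 2 uncharacterized frames serve as examples. YMR206W had 888 and 776 CPM in the quiescent replicates, against 2.05 and 1.79 CPM in the G1 replicates. YLR413W (INA1) had 3.58 and 0.894 CPM in the quiescent replicates, against 785 and 719 CPM in the G1 replicates, a log2 fold change of -8.25 ± 0.44. Uncharacterized frames took 8.71 and 8.42 reads per 100 mRNA reads in the quiescent replicates, against 3.14 and 3.27 in the G1 replicates.

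Noncoding RNAs were taken from a table that merges published catalogues of unstable and antisense transcripts into 4318 representative RNAs. Of 3496 tested, 41.1% were higher in quiescence and 16.6% lower, and 784 were higher with K. lactis scaling, against 1436 with TMM. Those lying at least 50% within a gene on the opposite strand had 554 of 1364 higher and 126 lower (median 1.09). Those with neither relation to a gene had 555 of 1267 higher and 200 lower (median 0.96), and those overlapping a gene on their own strand, where reads may belong to the mRNA, 327 of 865 higher and 253 lower (median 0.35). By catalogue, transcripts found as SUTs alone (stable unannotated transcripts) had 67 of 121 higher and 10 lower, and those found as NUTs alone (seen on loss of Nrd1) 96 of 189 higher and 11 lower. SRATs alone had 95 of 150 higher and 8 lower, CUTs alone 41 of 116 higher and 27 lower, CUTHMM transcripts 117 of 367 higher and 79 lower, and CUT4x transcripts 149 of 387 higher and 139 lower. XUTs alone had 214 of 416 higher and 34 lower, yet their summed reads were fewer, at 0.552 and 0.486 reads per 100 mRNA reads in quiescence against 1.19 and 1.28 in G1.

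**Figure D4:**
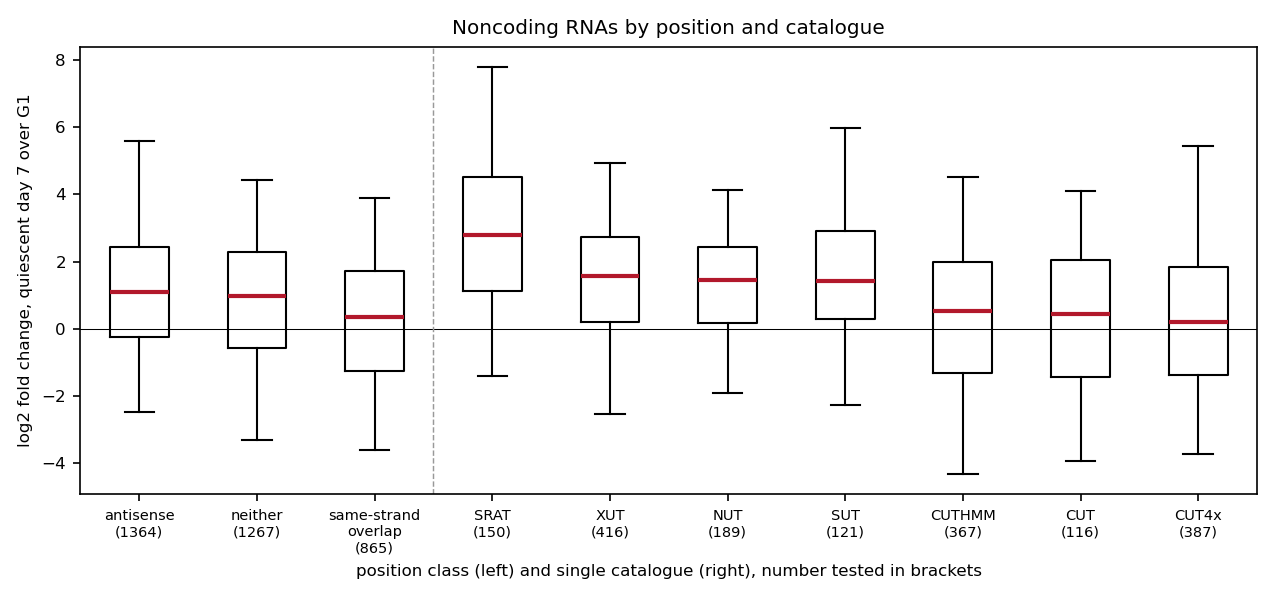
Log2 fold change (quiescent day 7 over G1) of noncoding RNAs by position class and by single catalogue, with boxes for quartiles, whiskers for the 5th and 95th percentiles and red lines for medians. Medians run from 0.35 to 1.09 over the position classes and from 0.21 (CUT4x) to 2.78 (SRAT) over the catalogues.

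The antisense class was paired with the genes it covers, giving 1355 pairs with 1319 different genes. Where the antisense RNA rose, the gene rose in 216 and fell in 198 of 551 pairs, 39.2% and 35.9%. Over all pairs the gene rose in 43.8% and fell in 32.5%. Where the antisense RNA fell, the gene rose in 59 and fell in 33 of 125 pairs. Across the 1355 pairs, which share libraries and in part genes, the Pearson correlation of the 2 log2 fold changes was -0.14. Single loci had large opposite changes, and those given next were singled out after their values were seen.

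IME4, the mRNA methyltransferase gene of meiotic entry, had 1.49 and 1.34 CPM in quiescent cells and 244 and 250.2 CPM in G1 cells, and the antisense RNA CUT4x-CUT4062 (chromosome VII, 142655 to 142846, minus strand of R64) had 68.1 and 77.7 CPM in quiescent cells and 2.96 and 2.69 CPM in G1 cells. Their log2 fold changes were -7.42 ± 0.27 for the gene and 4.68 ± 0.33 for the antisense RNA. In haploid cells an antisense RNA at this gene is known to block its transcription. Whether CUT4x-CUT4062 is that RNA, and whether it acts on IME4 in these cells, was not tested. FET3, the high-affinity iron oxidase gene, had 14.9 and 9.83 CPM in quiescent cells and 445 and 449 CPM in G1 cells, and XUT-13R-177 on its other strand (chromosome XIII, 389224 to 390767) had 44.2 and 38.0 CPM in quiescent cells and 4.33 and 4.04 CPM in G1 cells. MBR1, a gene linked to mitochondrial function, ran the opposite way, with 273 and 117 CPM in quiescent cells and 1.82 and 2.24 CPM in G1 cells. Its antisense RNA SUT-SUT665_XUT-11R-114 (chromosome XI, 264226 to 266139) had 2.39 and 5.36 CPM in quiescent cells and 21.2 and 24.7 CPM in G1 cells. The 3 pairs were chosen for large opposite changes, so the lack of overlap between quiescent and G1 values on either strand follows from that choice.

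Of the 4 noncoding RNAs with the largest rises and the 4 with the largest falls, 3 overlap a gene on their own strand, so their reads may belong to the mRNA. CUT4x-CUT2882 (chromosome XI, 456943 to 457531, minus strand) lies within FOX2, the second enzyme of beta-oxidation, on the same strand, and had 811 and 1058 reads in quiescence and 1 and 0 reads in G1. CUTHMM-CUT1564 (chromosome X, 101176 to 101857) covers the mating gene ASG7 on its strand and had 1.49 and 1.79 CPM in quiescent cells and 1452 and 1511 CPM in G1 cells. The RNA that begins with NUT-NUT1462, a merged entry on chromosome XVI (128401 to 135543), contains GRE1. CUT-CUT791 (chromosome XIII, 874389 to 874550) overlaps no annotated gene on its strand. It had 1051 and 767 CPM in quiescent cells and 0.912 and 0 CPM in G1 cells (10.92 ± 0.63, adjusted p = 1.60e-08). Whether its reads come from an adjoining mRNA was not tested. SRAT-SRAT863 (chromosome XIII, 587062 to 587801), antisense to MSS11, a regulator of adhesion and filamentous growth, had 41 and 62 reads in quiescence and none in G1. XUT-3F-78 (chromosome III, 168897 to 169249) had 1.49 and 0.447 CPM in quiescent cells and 319 and 463 CPM in G1 cells (-8.51 ± 0.47, adjusted p = 1.55e-08).

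With the Universal Plus kit, day 8 quiescent cells were set against G1 cells in 5709 tested mRNAs, of which 39.5% were higher and 42.5% lower; with K. lactis scaling 996 were higher and 3941 lower. The quiescent libraries of that kit carry the batch 1 label and the G1 libraries batch 2, so batch and state cannot be told apart there. The 2 comparisons share no library, but their libraries carry the same strain numbers, 5781 and 5782. Whether any came from the same cultures is not given in the labels. Of the 5681 mRNAs tested in both, 3915 were called in the same direction, which is 90.0% of the day 7 calls and 84.0% of the day 8 calls, and 39 were called in opposite directions. Of the 47 lists, 40 had medians of the same sign in both. The purine list had a median of -2.81 at day 7 and -1.42 at day 8, and fatty acid synthesis -2.28 and -1.35. These pairs of values differ in day, kit and batch, and no test of the difference was made.

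**Figure D5:**
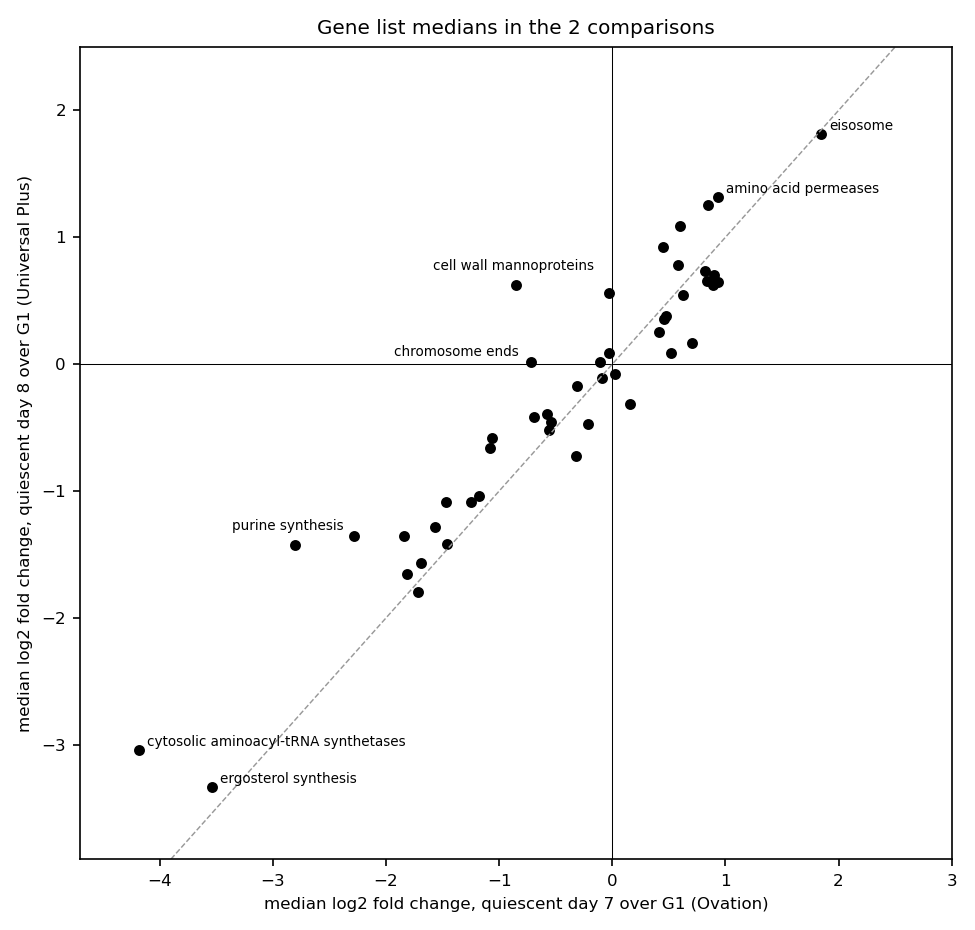
Median log2 fold change of each of the 47 lists for day 8 over G1 with the Universal Plus kit (y axis) against day 7 over G1 with the Ovation kit (x axis), with the line of equal values dashed. The cell wall mannoproteins lie off the line, at -0.85 for day 7 and 0.62 for day 8.

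Relative to the K. lactis reads, the S. cerevisiae mRNA total was 9.74 and 6.48 in the quiescent replicates, against 16.1 and 9.84 in the G1 replicates, and the groups did not overlap. The geometric mean was 1.59-fold lower in quiescence, with the exact permutation p at 0.333, the smallest that 2 libraries against 2 allow. With the Universal Plus kit the ratio was 4.75 and 5.19 in quiescent day 8 libraries and 13.4 and 13.2 in G1 libraries, 2.68-fold lower in quiescence with the same exact permutation p of 0.333. How the K. lactis material was added is not given in the sources used here, so this ratio is not read as RNA per cell.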

How the data were processed

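RNA of 4 wild-type libraries (Ovation kit, with molecular identifiers) was compared; 4 libraries of the same states made with the Universal Plus kit were analysed apart. Per the submitters' processing notes, the authors used UMI-tools, STAR, SAMtools and HTSeq with the sacCer3/R64 genome. The deposited values are whole-number counts per feature by strand; 0 columns could not be mapped to a sample. Feature coordinates are those of the authors' files; 5917 of 6600 mRNA identifiers were found in the RefSeq table, and 5274 carry a standard name. No sequence or promoter was used here.

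Counts were tested with edgeR 4.0.16 in R 4.3.3 (TMM on S. cerevisiae mRNAs, low-count filter, quasi-likelihood F-test, Benjamini-Hochberg over each whole table at 0.05). The fit held the 8 wild-type Ovation libraries, nascent and steady-state, in 4 groups, to share one estimate of spread. Structural and noncoding tables used the mRNA library sizes. Unassigned reads (no feature) made up 10.8% to 28.0% of aligned reads and multiply aligned reads 21.0% to 31.2%, and both were left out. Log2 CPM used a prior count of 2. Length-scaled levels are CPM per length, set to the same total over mRNAs in every library. The fitting code was tested on simulated data.

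The members, the 47 lists and the tests were chosen with earlier results of these data known. Named genes were the 2 largest rises and 2 largest falls of each list, called members opposed to their list's median, all members of the related-gene sets, markers, the highest per length, and the 8 largest rises and falls outside the lists; of these, those whose roles could be stated are printed, and 3 list names were not matched. Some named items are not reported here. Quiescent and G1 replicates share strain numbers in the labels, and a block for that number was 1 alternative; same-numbered libraries did not deviate together from their group means (r = -0.030). Alternatives were DESeq2 1.42.0 (size factors, and its own test), K. lactis scaling, no low-count filter, only the 4 steady-state libraries, a replicate block, a test against a 2-fold change, and leaving out each library.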

Additional observations from a re-analysis of the deposited data

Results flagged for a closer look

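In 5 named genes the libraries of the 2 kits moved in opposite directions, each called in both comparisons. GCV1 and GCV2, subunits of the glycine cleavage complex, had log2 fold changes of -2.45 and -1.49 for quiescent day 7 over G1, and 0.40 and 1.66 for quiescent day 8 over G1. The day 7 calls of both held in every alternative run. Those of CDC20, CLG1 and GPI14 were lost with K. lactis scaling and against a 2-fold change. CDC20, the activator of the anaphase-promoting complex, had 0.91 at day 7 and -0.58 at day 8, and its day 7 call was also lost without either G1 replicate and without quiescent replicate 1. CLG1, a cyclin-like protein that binds Pho85, had -0.61 at day 7 and 0.62 at day 8, the first not called without either G1 replicate or with only the 4 steady-state libraries. GPI14, a mannosyltransferase of GPI anchor synthesis, had 0.55 at day 7 and -0.94 at day 8, the first not called without either G1 replicate or without quiescent replicate 2. The difference between the comparisons was not tested, and day, kit and batch differ between them.

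Outside the gene tables, 20S RNA, a cytoplasmic narnavirus known to accumulate in starved yeast, made up 13.4% and 6.09% of aligned reads in the quiescent day 7 replicates, against 0.0877% and 0.145% in the G1 replicates. The means were 9.77% and 0.116%. With the Universal Plus kit it made up 53.9% and 55.1% in quiescent day 8 libraries and 1.22% and 1.33% in G1 libraries.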

How the results depend on the processing

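For the named mRNAs at day 7, the direction of the calls held more firmly than their number. With K. lactis scaling, 912 mRNAs, 784 noncoding RNAs and 73 structural features were higher in quiescence, against 2194, 1436 and 135 with TMM, and the counts of the day 8 comparison were 996 higher and 3941 lower, against 2253 and 2426. Direction was less firm at day 8, where counts scaled to K. lactis gave an mRNA median shifted by -1.39 on the log2 scale. Of the lists with a positive day 8 median, only the eisosome list then stayed positive (0.41). In the day 7 test against a 2-fold change, 1350 mRNAs were higher. Leaving out 1 library at a time gave 1861 to 2170 mRNAs higher and 2057 to 2331 lower, 1045 to 1374 noncoding RNAs higher and 485 to 523 lower, 110.0 to 128 structural features higher and 94 to 101 lower, and at day 8 1984 to 2194 mRNAs higher and 2149 to 2404 lower. The replicate block by strain number gave 2219 mRNAs higher and 2297 lower, and it changed 3 calls among the 484 tested named mRNAs. Of those, 287 kept call and direction in every alternative run and 0 reversed. K. lactis scaling changed 179 of these calls and the test against a 2-fold change 158. Precision is limited by 2 libraries per state and by the wider spread of the quiescent pair.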

Other observations

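The 2 quiescent replicates differed from each other in genes that the G1 replicates held at like levels. PDR5, the main drug efflux pump, had 181 CPM in quiescent replicate 1 and 2166 CPM in quiescent replicate 2, with 2941 and 3992 CPM in the G1 replicates. The general amino acid permease gene GAP1 had 105 and 942 CPM in the quiescent replicates, against 189.8 and 183 CPM in the G1 replicates. The glyoxylate cycle gene ICL1 had 365 and 1393 CPM in the quiescent replicates, against 23.7 and 24.0 CPM in the G1 replicates. CCW12 ran the other way within quiescence, with 314 and 87.6 CPM, against 7525 and 9542 CPM in the G1 replicates. These genes were chosen after their values were seen.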
